A study of Mus musculus with 6 samples.

Results

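The genes described here encode 8 SNARE proteins, namely the syntaxins STX1A, STX2, STX3 and STX4, the SNAP-25 family members SNAP23 and SNAP25, and the vesicle proteins VAMP1 and VAMP2. They were matched by gene symbol, as 8 of the 58870 genes and 83 of the 208621 isoforms in the expression tables. RNA-seq was run on 77-5 cells, a single clone of T-REx-293, which is a HEK293 line (human, from embryonic kidney) that makes the tetracycline repressor. In all 6 samples the cells held the same pair of additions, a minigene of the mouse Ntrk2 (TrkB) gene made from BAC clone RP23-424E11 and an Rbfox1 gene that doxycycline switches on. Rbfox1 binds RNA and controls the choice of exons in splicing. There were 3 samples without treatment (No Dox) and 3 samples given doxycycline for 48 h (Dox), at a dose stated as 0.5 mg/ml in the labels and in the methods of the study, and in micrograms per ml in its figure legends. Doxycycline and Rbfox1 differ together between the groups, so their parts cannot be told apart. The organism given in the labels is mouse, but both the cells and the transcripts described here are human.

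SNARE proteins drive the fusion of membranes inside cells. A syntaxin and a protein of the SNAP-25 family on the target membrane form a helical bundle with a VAMP on the vesicle, and NSF with its SNAP adaptors later takes the bundle apart. STX1A, SNAP25 and VAMP2 form the complex that releases neurotransmitter at synapses, while STX2, STX3, STX4 and SNAP23 are known for fusion at the plasma membrane in many other cell types.

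The totals of expected counts, RSEM's estimates of fragments, ran from 59822964 to 65774104 per sample. RBFOX1 stood between 6.92 and 8.42 TPM (transcript abundance scaled for length and for the total of a sample) in No Dox and between 186 and 189.8 TPM in Dox, in accord with the labels, and rose by 4.55 ± 0.06 (SE) on the log2 scale (edgeR adjusted p = 7.61e-18). RBFOX2 fell by 1.71 ± 0.03 (SE) on that scale (edgeR adjusted p = 1.37e-16). All 8 of 8 markers of HEK293-type cells reached a mean of 1 TPM in a group, and their summed level ran from 1165 to 1180.4 TPM without doxycycline and from 1047 to 1084 TPM with it. VIM (means of 692 TPM in No Dox and 666 TPM in Dox) led that sum, before KRT8 (227 and 188 TPM) and KRT18 (155 and 121 TPM). The sums of different lists rest on different genes and are not comparable in size. NEFM reached a mean of 1 TPM only in Dox (0.55 and 1.15 TPM). Of 11 neuronal markers, 5 reached that level, with sums of 46.7 to 48.3 TPM and 49.2 to 51.2 TPM. INA (means of 26.4 TPM in No Dox and 27.3 TPM in Dox) and GAD1 (12.5 and 13.2 TPM) led, before SYN2, RBFOX3 and SYT1. DCX, ELAVL3 and ELAVL4 stayed at or under 0.12 TPM in every sample. Glial markers (1 of 4, sums of 4.93 to 6.06 and 4.59 to 5.34 TPM) and fibroblast markers (2 of 4, sums of 8.49 to 8.87 and 11.4 to 11.9 TPM) were low, and none of the 7 markers of blood, liver and muscle reached a mean of 1 TPM. Mitochondrial genes took 3.25 to 3.34% of the counts without doxycycline and 3.61 to 3.71% with it. The part of these shifts in the results was not tested. No label says that the samples of a group came from separate cultures, so the p-values measure only the spread between these samples, which may be technical.

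The first question was which of the 8 SNARE genes changed in level when doxycycline was given. STX2, SNAP25, VAMP1 and VAMP2 rose, STX3, STX4 and SNAP23 fell, and STX1A did not pass the test. Thus 7 of 8 genes were called, beside 51.4% of the 18264 genes tested in all (24.9% higher and 26.5% lower). The changes ran from a fall to 0.608 times the No Dox level for STX3 to a rise to 1.54 times for SNAP25. The TPM values of the groups did not overlap in 7 of the 8 genes, beside 50.3% of all genes tested. The median log2 fold change was 0.14 over the 8 genes and 0.00 over all genes tested. In bulk samples, fewer cells that use a gene and less RNA per cell cannot be told apart.

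**Figure D1:**
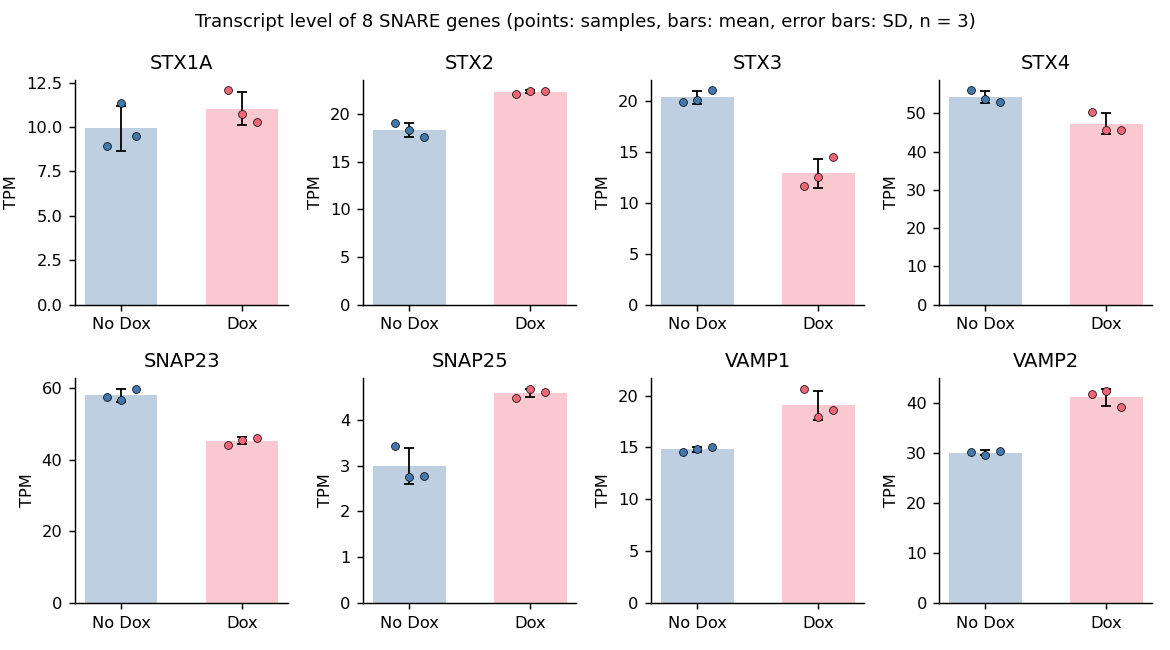
Gene level in TPM (vertical axis, from 0) in each sample of the No Dox and Dox groups, 1 panel per gene, with points for samples, bars for means and error bars for SD (n = 3 per group). The points of the groups are apart in every panel except STX1A, where No Dox runs from 8.91 to 11.4 TPM and Dox from 10.3 to 12.1 TPM.

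Among the syntaxins, STX1A (ENSG00000106089.12), the syntaxin of nerve terminals, measured 8.91, 11.4 and 9.49 TPM in No Dox and 12.1, 10.8 and 10.3 TPM in Dox. The groups overlapped, and No Dox replicate 2 was above Dox replicates 2 and 3. The log2 fold change was 0.11 ± 0.07 (SE), with a 95% interval of -0.05 to 0.26 (edgeR adjusted p = 0.254). STX2 (ENSG00000111450.14), also known as epimorphin, measured 19.1, 18.3 and 17.6 TPM in No Dox and 22.1, 22.4 and 22.4 TPM in Dox. Every Dox sample was above every No Dox sample, and STX2 rose by 0.24 ± 0.03 (SE) on the log2 scale (edgeR adjusted p = 1.75e-05).

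STX3 (ENSG00000166900.17), a syntaxin known from the apical membrane of epithelia and from ribbon synapses, measured 20.0, 20.1 and 21.1 TPM in No Dox and 11.7, 12.6 and 14.5 TPM in Dox. All 3 Dox samples were far below the No Dox samples, and the spread was wider in Dox. Of the 8 genes it moved most, with a fall of 0.72 ± 0.04 (SE) on the log2 scale (edgeR adjusted p = 1.30e-09). STX4 (ENSG00000103496.15), which serves fusion at the plasma membrane in fat, muscle and many other cells, measured 56.0, 53.9 and 52.9 TPM in No Dox and 50.4, 45.6 and 45.8 TPM in Dox. The groups did not overlap, although Dox replicate 1 lay within 3 TPM of No Dox replicate 3. STX4 fell by 0.25 ± 0.04 (SE) on the log2 scale (edgeR adjusted p = 7.03e-05).

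In the SNAP-25 family, SNAP23 (ENSG00000092531.10), the widely used member, measured 57.4, 56.5 and 59.8 TPM in No Dox and 44.2, 45.6 and 46.0 TPM in Dox. The gap between the groups was larger than the range within either, and SNAP23 fell by 0.35 ± 0.03 (SE) on the log2 scale (edgeR adjusted p = 2.11e-07). SNAP25 (ENSG00000132639.12), the member of nerve terminals and endocrine cells, measured 3.44, 2.76 and 2.78 TPM in No Dox and 4.49, 4.67 and 4.61 TPM in Dox. It had the lowest level of the 8 genes in every sample, on 272, 207 and 229 expected counts in No Dox and 367, 366 and 389 in Dox. SNAP25 rose by 0.63 ± 0.09 (SE) on the log2 scale (edgeR adjusted p = 2.44e-05). The antisense gene SNAP25-AS1 held between 11 and 17.99 expected counts without doxycycline and between 14 and 20 with it, and the pseudogene SNAP23P1 held at most 3 in any sample.

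The mean share of SNAP25 in the summed TPM of SNAP23 and SNAP25 was 4.92 ± 0.65% in No Dox and 9.21 ± 0.10% in Dox (SD, n = 3 each). The single samples were at 5.65, 4.65 and 4.44% in No Dox and at 9.22, 9.30 and 9.10% in Dox. The groups did not overlap (exact permutation test, two-sided, p = 0.1, the smallest that 3 against 3 samples allow), and SNAP23 made up most of the sum in every sample.

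Among the vesicle SNAREs, VAMP1 (ENSG00000139190.16), known from spinal cord and neuromuscular synapses, measured 14.5, 14.9 and 15.0 TPM in No Dox and 20.7, 18.0 and 18.6 TPM in Dox. All Dox samples were higher, and VAMP1 rose by 0.17 ± 0.05 (SE) on the log2 scale of counts (edgeR adjusted p = 0.00544). On scales that correct for isoform length the log2 fold change was larger, at 0.34 with length-scaled TPM (edgeR adjusted p = 0.00151) and 0.36 on the log2(TPM + 0.1) scale (limma adjusted p = 0.00207). VAMP2 (ENSG00000220205.9), synaptobrevin, measured 30.1, 29.6 and 30.5 TPM in No Dox and 41.9, 42.4 and 39.2 TPM in Dox. The No Dox samples lay within 1 TPM of each other and every Dox sample was above them, with a rise of 0.44 ± 0.04 (SE) on the log2 scale (edgeR adjusted p = 6.92e-08). The summed counts of VAMP2 were up to 0.32 from a whole number and those of the other 7 genes at most 0.01. RSEM gives such fractions where reads also match another gene.

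**Figure D2:**
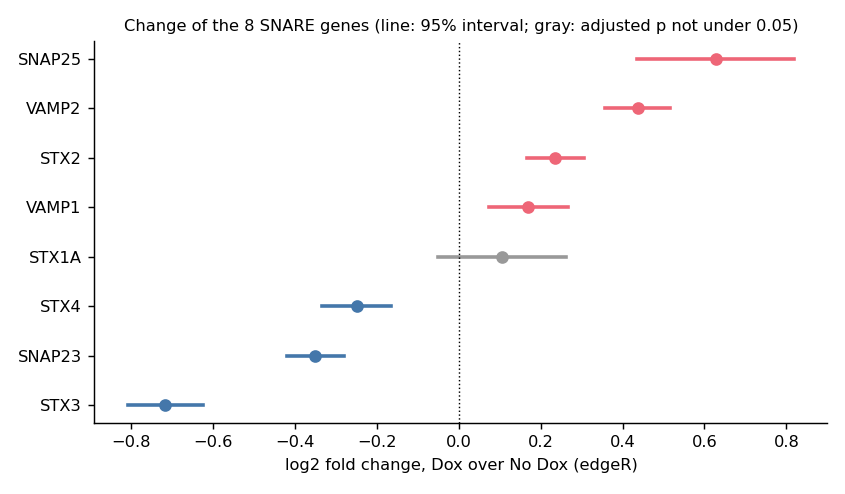
Log2 fold change of each of the 8 genes, Dox over No Dox (horizontal axis), from edgeR on summed expected counts of 3 samples per group. Points are estimates and lines 95% intervals, in red for higher, blue for lower and gray for STX1A, whose interval of -0.05 to 0.26 holds 0.

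Summed by class, the 4 syntaxins came to 102.9 ± 1.6 TPM in No Dox and 93.5 ± 2.5 TPM in Dox (SD, n = 3 each). SNAP23 and SNAP25 together came to 60.9 ± 1.6 TPM and 49.9 ± 1.0 TPM, and VAMP1 and VAMP2 together to 44.9 ± 0.55 TPM and 60.2 ± 2.4 TPM. The groups did not overlap in any of the 3 sums, each with the smallest p of 0.1 (exact permutation test, two-sided). For these genes only, both sums of target membrane SNAREs were lower in Dox, and the sum of VAMP1 and VAMP2 was higher. STX2 and SNAP25 rose, so the lower sums came from STX3, STX4 and SNAP23. The sums do not stand for whole classes, since other SNARE genes were left out. VAMP3 (means of 84.5 TPM in No Dox and 86.1 TPM in Dox) and VAMP8 (78.8 and 77.5 TPM) had overlapping groups. Of other syntaxins, STX12 rose (29.6 and 34.5 TPM) and STX16 fell (57.5 and 53.2 TPM). STX3 made up 19.8 ± 0.90% of the syntaxin sum in No Dox and 13.8 ± 1.7% in Dox, and STX2 made up 17.8 ± 0.48% and 23.9 ± 0.81% (SD, n = 3 each, groups apart). The share of STX4 was 52.7 ± 1.0% and 50.5 ± 1.6%, with groups that overlapped.

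In No Dox the order of the levels, from highest to lowest TPM, was SNAP23, STX4, VAMP2, STX3, STX2, VAMP1, STX1A and SNAP25, and no neighbours in that order overlapped over the 3 samples. In Dox the order was STX4, SNAP23, VAMP2, STX2, VAMP1, STX3, STX1A and SNAP25. There the values of STX4 and SNAP23 overlapped, as did those of STX3 and STX1A. STX3 stood above STX2 and VAMP1 in every No Dox sample and below both in every Dox sample.

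The second question was whether the isoforms of each gene changed differently from one another. Isoforms carry the names of the annotation, such as SNAP25-201, in which the number is a serial number of the transcript and says nothing of its exons. The isoform percentage is the share of a gene's TPM that RSEM assigned to an isoform. Isoform usage was called as changed in 7 of the 8 genes, all but STX1A (limma diffSplice, Simes adjusted p under 0.05), beside 27.5% of the 12328 genes tested. In simulated data where each isoform had its own dispersion, diffSplice made more false calls than its threshold allows. With edgeR's diffSpliceDGE the count was 3 of 8 (STX2, SNAP25 and SNAP23), and 1231 against 3386 of all genes. SNAP25 and STX2 each exchanged their leading isoform, and VAMP1 and STX3 shifted by 21.0 and 10.7 points. The largest shift in STX1A, STX4, SNAP23 and VAMP2 was below 10 points. A shift of at least 10 points occurred in 2486 of the 12328 genes (20.2%), one of at least 50 points in 30 genes (0.243%) and one of at least 80 points in 2 genes, and the median gene shifted by 4.78 points.

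**Figure D3:**
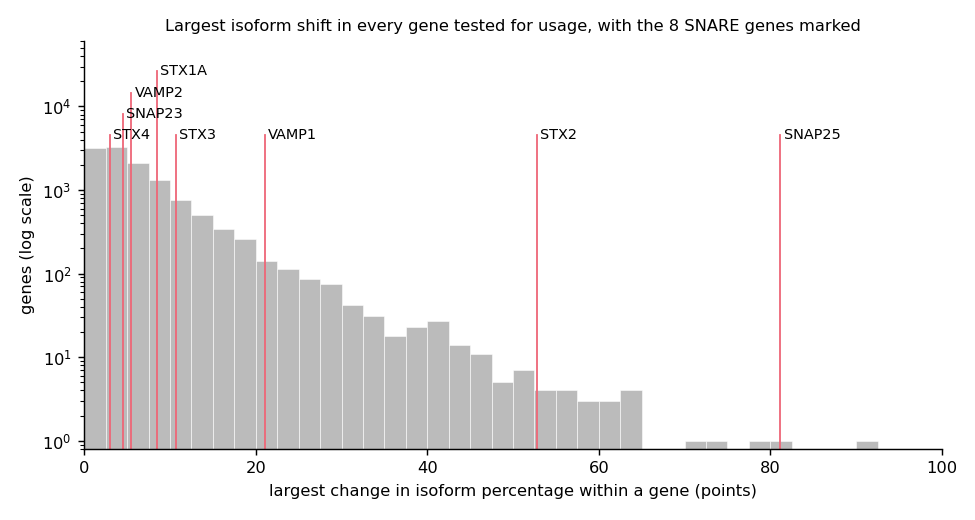
Histogram of the largest change in isoform percentage within each of the 12328 genes tested for usage (horizontal axis, points; vertical axis, genes on a log scale), with lines at the 8 SNARE genes. SNAP25 at 81.2 points and STX2 at 52.8 points lie in the thin right tail, VAMP1 at 21.0 points lies between, and the other 5 lie at 10.7 points or less.

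SNAP25 showed the second largest shift of all genes tested. SNAP25-201 (ENST00000254976.6) made up 11.3, 0 and 16.3% of SNAP25 in No Dox and 86.7, 89.7 and 94.7% in Dox. SNAP25-202 (ENST00000304886.6) made up 63.1, 71.3 and 75.9% in No Dox and 5.51, 6.06 and 0% in Dox. In each of the 6 samples the isoform with the larger share was SNAP25-202 without doxycycline and SNAP25-201 with it, and neither pair of groups overlapped. The mean share of SNAP25-201 went from 9.21 ± 8.4% to 90.4 ± 4.0% (SD, n = 3 each), a difference of 81.2 points (exact permutation test, two-sided, p = 0.1, the smallest possible). The permutation test was run on the isoform with the largest change in the gene, without repeating that pick, so its p adds no support. Usage of SNAP25 changed with an adjusted p of 8.56e-04 in limma diffSplice.

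Behind these shares stood 33.2, 0 and 37.0 expected counts of SNAP25-201 in No Dox and 328, 327 and 373 in Dox. For SNAP25-202 there were 185, 158 and 172 expected counts in No Dox and 20.8, 22.1 and 0 in Dox. An estimate of 0 among the 207 counts of the gene in No Dox replicate 2 allows a share of up to 1.45% (3 counts), and 0 among 389 in Dox replicate 3 up to 0.771%. Both limits cover counting error only, not the division of reads by RSEM. The lengths of the transcripts in the tables are 2053 bases for SNAP25-201 and 2050 for SNAP25-202, so the lengths differ by 3 bases. SNAP25 is known for a choice between a pair of similar, mutually exclusive exons, but which exons SNAP25-201 and SNAP25-202 hold was not analysed here.

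As single isoforms, SNAP25-201 rose with a log2 fold change of 5.22 ± 1.21 (SE) and SNAP25-202 fell by 4.90 ± 1.18 (SE), with limma-voom adjusted p-values of 0.037 and 0.0423. Both values rest in part on the sample at 0 counts. Without No Dox replicate 2 the log2 fold change of SNAP25-201 was 3.27, and without Dox replicate 3 that of SNAP25-202 was -2.96, with both still called. On the log2(TPM + 1) scale the values were 2.03 and -1.40. With all samples the calls were close to the threshold. SNAP25-201 was not called without No Dox replicate 1 or 3 or without any one of the Dox samples (limma-voom adjusted p of 0.0717 to 0.0909). SNAP25-202 was not called without any one of the No Dox samples, without Dox replicate 1 or 2 (limma-voom adjusted p of 0.0812 to 0.105), or with edgeR (adjusted p = 0.0635). The usage call of SNAP25 was made in all 10 alternatives, with adjusted p-values up to 0.0193. The remaining tested isoform, SNAP25-205, held 15.4, 18.6 and 7.85% in No Dox and 3.79, 4.22 and 3.39% in Dox, with groups apart and no call by limma-voom (adjusted p = 0.213).

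STX2 exchanged its leading isoform as well, with larger counts. STX2-201 (ENST00000261653.10) held 541, 540.1 and 681 expected counts in No Dox and 2402, 2245 and 2426 in Dox, while STX2-203 (ENST00000392373.7) held 1794, 1648 and 1658 in No Dox and 468, 361 and 406 in Dox. Every sample of one group was apart from every sample of the other for both isoforms. STX2-201 rose by 1.999 ± 0.09 (SE) and STX2-203 fell by 2.06 ± 0.08 (SE) on the log2 scale (limma-voom adjusted p of 8.22e-05 and 5.27e-05).

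As shares of the gene, STX2-201 stood at 19.8, 21.9 and 28.1% in No Dox and 76.5, 76.2 and 75.4% in Dox, and STX2-203 at 63.5, 64.4 and 66.1% and 14.4, 11.8 and 12.2%. The shift of 52.8 points ranked at place 23 of the 12328 genes, and usage changed with an adjusted p of 1.92e-12 in limma diffSplice. Of the counts of these isoforms alone, STX2-201 took 25.7 ± 3.1% in No Dox and 85.2 ± 1.3% in Dox (SD, n = 3 each). Their summed share of the gene was 87.9 ± 5.7% and 88.8 ± 1.7%, with overlap between the groups. STX2-201 spans 3331 bases in the annotation and STX2-203 spans 3441, a difference of 110 bases. The rise of the gene as a whole, 0.24 on the log2 scale, was thus small beside the changes of its isoforms in opposite directions.

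**Figure D4:**
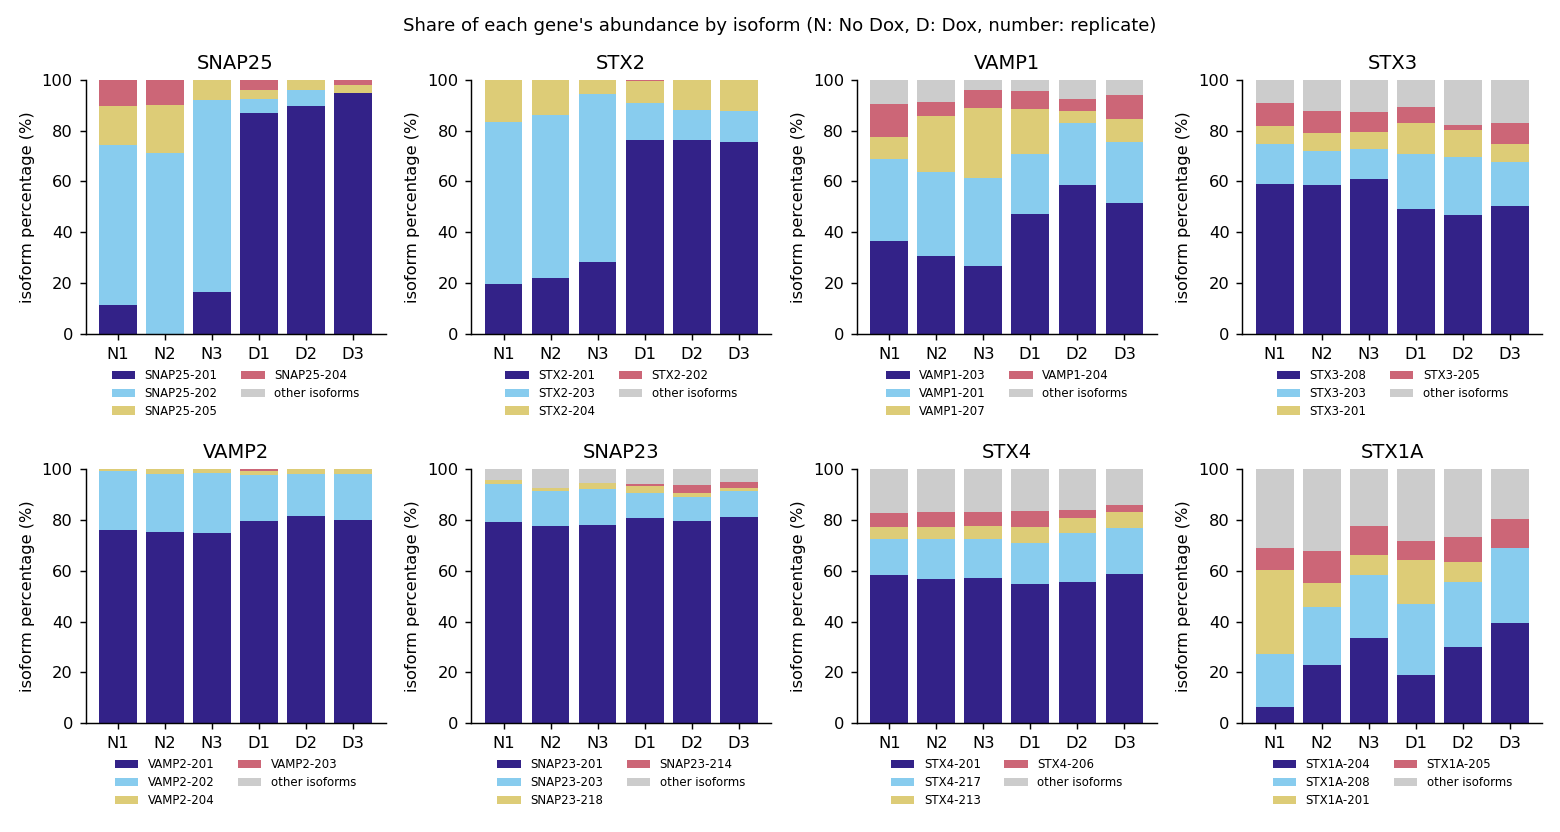
Isoform percentage (vertical axis, %) in each sample (N1 to N3, No Dox replicates; D1 to D3, Dox replicates), 1 panel per gene, stacked for the 4 isoforms with the highest mean share and gray for the rest. The dark bar of SNAP25-201 goes from at most 16.3% in No Dox to at least 86.7% in Dox and that of STX2-201 from at most 28.1% to at least 75.4%, while STX4-201 stays between 54.7 and 58.7%.

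In VAMP1, which is known for isoforms with different C-terminal ends, VAMP1-203 (ENST00000400911.7) held 36.5, 30.8 and 26.7% in No Dox and 47.2, 58.6 and 51.3% in Dox. VAMP1-201 (ENST00000361716.7) held 32.2, 33.0 and 34.7% in No Dox and 23.8, 24.3 and 24.0% in Dox. The groups were apart for both. VAMP1-203 rose by 1.09 ± 0.13 (SE) on the log2 scale (limma-voom adjusted p = 0.0034), from 214, 175 and 156 expected counts to 389, 389 and 388. VAMP1-201 gave 697, 688 and 746 expected counts in No Dox and 723, 594 and 668 in Dox, with overlap and a log2 difference of -0.12 ± 0.08 (SE, limma-voom adjusted p = 0.392). The isoform that rose is the shorter, at 1068 bases against 3449. Usage of VAMP1 changed with a limma diffSplice adjusted p of 0.00169, and was not called by edgeR's diffSpliceDGE (adjusted p = 0.233).

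STX3-208 (ENST00000641815.1), the leading isoform of STX3, held 59.0, 58.6 and 60.8% in No Dox and 49.2, 46.9 and 50.3% in Dox. It fell by 0.96 ± 0.10 (SE) on the log2 scale (limma-voom adjusted p = 0.00164), from 1638, 1545 and 1709 expected counts to 790.5, 749.6 and 1017. STX3-203, at 15.8, 13.6 and 11.9% in No Dox and 21.6, 22.5 and 17.5% in Dox, had a log2 difference of -0.10 ± 0.15 (SE, limma-voom adjusted p = 0.702). It was thus the share of STX3-203 that was higher in every Dox sample, while its counts did not pass the test. Usage of STX3 changed in limma diffSplice (adjusted p = 1.54e-04) and was not called by diffSpliceDGE (adjusted p = 0.955).

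VAMP2-201 (ENST00000316509.11) rose by 0.53 ± 0.05 (SE) on the log2 scale (limma-voom adjusted p = 0.00134), from 2031, 1866 and 1941 expected counts in No Dox to 2926, 2795 and 2785 in Dox. VAMP2-202 (ENST00000404970.3) gave 410.3, 374 and 409 expected counts in No Dox and 436, 383 and 424 in Dox, with overlap and a log2 difference of 0.05 ± 0.08 (SE, limma-voom adjusted p = 0.764). The higher level of the gene in Dox thus lay mostly in VAMP2-201. The share of VAMP2-202 was 23.0, 22.6 and 23.6% in No Dox and 17.8, 16.7 and 18.3% in Dox, a change of -5.49 points (limma diffSplice adjusted p of VAMP2 = 0.00152), and diffSpliceDGE did not call it (adjusted p = 1.00).

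The isoform shares of SNAP23 and STX4 moved by less than 5 points. SNAP23-201 (ENST00000249647.8) held 79.4, 77.5 and 78.2% of SNAP23 in No Dox and 80.7, 79.6 and 81.2% in Dox, and fell by 0.33 ± 0.04 (SE) on the log2 scale (limma-voom adjusted p = 0.0031). The much shorter SNAP23-203 (477 bases against 2310) fell by 0.92 ± 0.16 (SE) (limma-voom adjusted p = 0.012), from 115, 99.9 and 110.2 expected counts to 58.0, 51.8 and 63.7. That call was not made without Dox replicate 1 or without Dox replicate 2 (adjusted p of 0.0512 and 0.0523). SNAP23-214 was listed at 0 in all 3 No Dox samples and at 14.2, 37.8 and 29.4 expected counts in Dox, at least 27.3-fold higher against a floor of 3 counts over the No Dox group. It was not called by limma-voom (adjusted p = 0.121), nor with any one sample left out. It was called by edgeR (adjusted p = 0.0177), by DESeq2 (adjusted p = 2.40e-06), by limma-voom with a filter at a mean count of 1 (adjusted p = 0.0356) and by limma on log2(TPM + 1) and log2(TPM + 0.1) (adjusted p of 0.0179 and 0.00433). These calls add no support, since SNAP23-214 passed the filter on low counts only through its Dox counts. SNAP23-205 was called in the same alternatives, from 2.18, 2.25 and 4.20 expected counts in No Dox to 31.4, 17.4 and 20.2 in Dox. SNAP23-213, which was not tested, went the other way, from 4.85, 8.86 and 4.04 expected counts to 0 in Dox (at least 5.88-fold lower). SNAP23-214 had the largest ratio of the member isoforms at 0 in a whole group. STX4-212, not tested, came next at no less than 21.7-fold higher, from 0 to 7.77, 47.5 and 9.55 expected counts in Dox. With overlapping groups, STX4-202 and VAMP2-203 were at 0 in No Dox. So were STX1A-203, STX1A-207, SNAP23-207 and SNAP23-220 in Dox.

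STX4-201 (ENST00000313843.8), the leading isoform of STX4, fell by 0.24 ± 0.06 (SE) on the log2 scale (limma-voom adjusted p = 0.0415), from 1832, 1615 and 1630 expected counts to 1525, 1297 and 1512. The call was not made without any one of the 6 samples (adjusted p of 0.0775 to 0.134). Its share overlapped between the groups, at 58.4, 56.8 and 57.3% in No Dox and 54.7, 55.5 and 58.7% in Dox. The usage calls of STX4 and SNAP23 lay just under the threshold (limma diffSplice adjusted p of 0.04 and 0.0409). Neither rested on the leading isoform. In SNAP23 the smallest p was that of SNAP23-214 (limma diffSplice unadjusted p = 0.00212), which was at 0 in No Dox. SNAP23-201 and SNAP23-203 had 0.35 and 0.0214 in that test. In STX4 the smallest was that of STX4-205 (limma diffSplice unadjusted p = 9.37e-04), while STX4-201 had 0.99. The usage of STX4 was called in 1 of 10 alternatives and that of SNAP23 in 4 of 10.

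STX1A was split among more isoforms of similar share. STX1A-204 held 6.37, 23.1 and 33.7% in No Dox and 19.1, 30.1 and 39.4% in Dox, and STX1A-201 held 33.3, 9.46 and 7.96% and 17.2, 8.02 and 0%. Both varied as much within a group as between the groups. In level, none of its 7 tested isoforms was called by limma-voom, and 0 of them had an unadjusted p under 0.05 in that test. DESeq2 and edgeR called 0 of them. Usage of STX1A as a gene did not pass the test (limma diffSplice adjusted p = 0.0911). As a single isoform STX1A-201 passed for usage (limma diffSplice adjusted p = 0.0471), although its shares overlapped between the groups.

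Over the 8 genes, 46 of the 83 isoforms passed the filter on low counts, 4 rose, 6 fell and 36 were not called, beside 12.6% called of the 72438 isoforms tested in all (6.19% higher and 6.44% lower). A called isoform was found in 7 of the 8 genes, and only STX2 and SNAP25 of the 8 had calls in both directions. The isoform percentages did not overlap between the groups in 22 of the 46 tested isoforms, 13 higher and 9 lower in Dox, beside 24.8% of all tested isoforms. Of the 83 isoforms, 77 were above 0 TPM in at least 1 sample, and 6 were at 0 in every sample.

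The rest of the SNARE machinery was taken as a list of 69 genes, of which 62 passed the filter, 17 rose, 26 fell and 19 were not called, beside 24.9% higher and 26.5% lower of all genes tested. The count that fell was 16 with length-scaled TPM and 15 on either log2 TPM scale. The median log2 fold change of the list was -0.02, beside 0.00 for all genes tested. Of 28 other SNARE genes tested, 8 rose and 9 fell, and of 12 SM proteins and other syntaxin-binding regulators, 3 rose and 6 fell, to be read beside the same shares over all genes. VTI1B, counted as a fall (-0.09 on the log2 scale of counts), had higher TPM in every Dox sample (means of 54.7 and 63.9 TPM). Calcium sensors, complexins and priming factors had the lowest median, -0.35 over 15 genes, with 3 that rose and 8 that fell. That median was the value of SYT6, at 1.35 TPM in No Dox and 1.19 TPM in Dox, with overlapping groups. Low levels were found among those that fell, such as CPLX2 (0.45 and 0.25 TPM) and UNC13A (0.70 and 0.39 TPM). All that rose were low too, namely SYT1 (1.82 and 2.30 TPM), SYT2 (1.11 and 1.34 TPM) and UNC13D (0.74 and 1.28 TPM). UNC13B (11.9 and 8.09 TPM), DOC2A (13.3 and 11.0 TPM), CPLX1 (6.08 and 4.03 TPM) and SYT11 (5.39 and 4.09 TPM) fell from higher levels. Usage changed in 9 of the 49 list genes tested for it, beside the 27.5% of all genes.

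**Figure D5:**
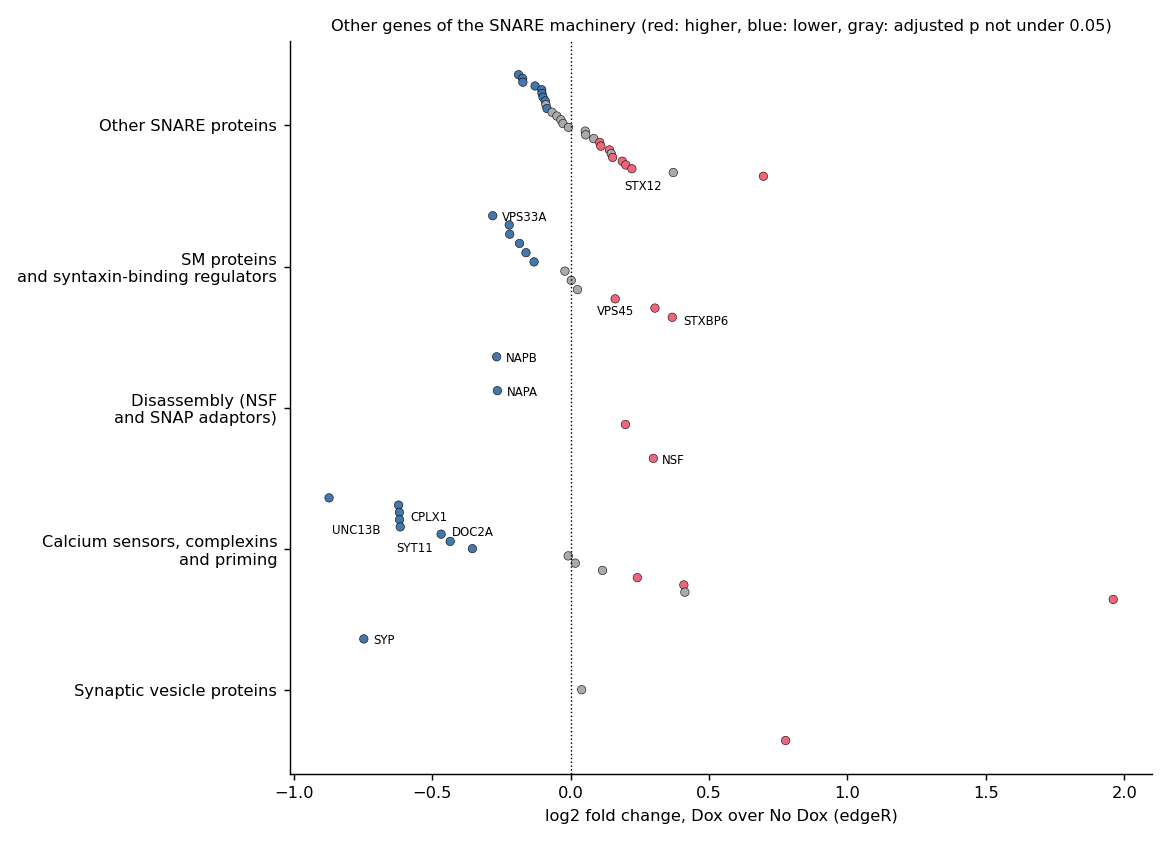
Log2 fold change, Dox over No Dox (horizontal axis, edgeR, 3 samples per group), of the 62 tested genes of the list, 1 point per gene in rows by role, with names for the 12 genes with the largest changes among called genes of at least 5 TPM. Most points lie within 0.3 of 0, the blue points of the calcium sensor, complexin and priming row reach further to the left, and the red point at 1.96 is UNC13D, picked out after its value was seen, at 32.0, 38 and 41 expected counts in No Dox and 155, 155 and 134 in Dox but with TPM groups that overlap (0.33, 0.39 and 1.49 against 1.42, 1.32 and 1.10).

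Among the 12 named genes of the list, 8 fell and 4 rose, with edgeR adjusted p-values of at most 1.17e-04. SYP, which encodes the vesicle membrane protein synaptophysin, fell by 0.75 ± 0.04 (SE) on the log2 scale (edgeR adjusted p = 1.08e-09), from 14.5 ± 0.43 to 8.68 ± 0.22 TPM (SD, n = 3 each). CPLX1, a complexin that clamps and promotes fusion, fell by 0.62 on the log2 scale, from 6.08 ± 0.08 to 4.03 ± 0.39 TPM. UNC13B, a priming factor of the Munc13 family, fell by 0.61, from 11.9 ± 0.19 to 8.09 ± 0.05 TPM. The C2-domain proteins DOC2A and SYT11 fell by 0.47 and 0.43, and the SM protein VPS33A by 0.28. NAPA and NAPB, the adaptors that bring NSF to the SNARE bundle, fell by 0.26 and 0.27, from 59.5 ± 2.1 to 52.2 ± 3.6 TPM and from 9.90 ± 0.04 to 7.84 ± 0.51 TPM. NSF, the ATPase that takes the bundle apart, rose by 0.30, from 45.1 ± 0.75 to 58.0 ± 2.3 TPM. VPS45, an SM protein of endosomal fusion, rose by 0.30, STX12, an endosomal syntaxin, by 0.22, and STXBP6, a protein with a VAMP-like SNARE motif, by 0.37. TPM groups were apart for all of the 12 but STXBP6, at 5.18 ± 0.82 and 6.41 ± 0.45 TPM.

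As a description of likeness, the list gene with the highest Pearson correlation of log2 CPM over the 6 samples was SNAP29 for STX2 (r = 0.996) and VAMP1 (r = 0.965), SYP for STX3 (r = 0.991) and SNAP23 (r = 0.983), STXBP6 for SNAP25 (r = 0.992), UNC13D for VAMP2 (r = 0.986) and SYT4 for STX1A (r = 0.733). The 6 points form a No Dox and a Dox cluster in most of these pairs, so r largely reflects the direction of the difference between the groups.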

How the data were processed

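Per the labels and the study's methods, libraries were made with a stranded mRNA kit, adapters were removed with cutadapt, and STAR and RSEM were used with GRCh38 to quantify isoforms. The versions and RSEM's strand setting were not given in the sources used here. Tables deposited by the authors hold, per isoform, expected counts, which are not normalized, TPM and FPKM values scaled for length and sample total, the isoform percentage and isoform lengths. FPKM was not used. Reads from shared exons are divided among isoforms by a model, so values of single isoforms are estimates. Overlapping antisense genes and paralogs can share reads likewise.

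Sums of expected counts per gene were rounded to whole numbers. Genes were tested with edgeR 4.0.16 (TMM, filterByExpr, quasi-likelihood test), isoforms with limma-voom (limma 3.58.1) and usage with limma diffSplice, in R 4.3.3. Tests were two-sided over all features, with Benjamini-Hochberg adjustment and a threshold of 0.05. DESeq2 1.42.0 was an alternative. The fits were tested on simulated data, where diffSplice made more false calls than its threshold allows if each isoform had its own dispersion. Likeness used log2 CPM with a prior count of 2. The most alike gene of STX4 is not reported here. All 8 genes and their isoforms were to be named, with up to 12 called list genes of at least 5 TPM in a group. The members, the list and this rule were chosen with earlier results of these data known. Chi-square values per gene between samples were 2.24 to 5.81 within groups and 36.9 to 47.0 between groups. No human sequence or coordinate was used here.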

Additional observations from a re-analysis of the deposited data

How the results depend on the processing

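Depth limits SNAP25 most, since its isoforms share 207 to 389 expected counts per sample, and isoform values rest on RSEM's division of reads. The log2 fold changes of all 8 genes and RBFOX1 kept their direction and their side of the threshold in the 15 alternatives run for each, so that 4 higher and 3 lower genes were called every time. The counts that moved were those of list genes lower in Dox, 26 against 16 with length-scaled TPM and 15 with limma on log2(TPM + 1) and log2(TPM + 0.1), and of all genes lower in Dox, 4841 against 3168 and 3184 on the latter scales. With library size only, 5682 of all genes were higher, since that scaling moves the median log2 fold change to 0.05. Of all isoforms, 9151 were called, against 15546 with DESeq2 and between 5518 and 6441 without any one sample. Leaving out a sample gave 3 to 6 member isoforms lower in Dox, 3 without Dox replicate 1 or 2. Usage calls fell from 7 to 3 of the 8 genes (STX2, SNAP25 and SNAP23) and from 3386 to 1231 of all genes with diffSpliceDGE. Usage of STX2 was called in all 10 alternatives. As a share of expected counts, which is not corrected for length, the change was 58.9 points for STX2-201, 1.44 for STX4-217, -0.82 for SNAP23-203 and -4.21 for VAMP2-202. The cause of these differences was not tested beyond what each alternative changes.

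Reversed directions came only in isoforms without a call in any of the fits concerned. STX3-202 (0.98) went to -0.26 with DESeq2 and with edgeR, -0.027 on log2(TPM + 1), -0.45 with the replicate block and -0.88 to 1.901 without any one sample. STX1A-205 (-0.01) went to 0.013 with library size only. With a sample left out, STX1A-205 ran from -0.25 to 0.20, STX4-211 from -2.16 to 0.46, STX4-213 from -0.014 to 0.086, STX4-215 from -0.26 to 0.40, STX4-216 from -2.28 to 1.43, VAMP1-204 from -0.17 to 0.47, SNAP23-218 from -0.28 to 0.16 and STX2-204 from -0.25 to 0.58.

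The labels number the replicates 1 to 3 in both groups. Deviations from the group means correlated at 0.04, 0.03 and 0.06 between samples with the same number. Between samples with different numbers they correlated at -0.04 to -0.002. Every No Dox sample correlated best with its own number, but all values were small. Whether the numbers pair the samples was thus not settled. With the replicate number as a block, the count of called member genes was 4 higher and 3 lower, and the log2 fold change of SNAP25-202 was -3.25 with an adjusted p of 0.059 by limma-voom, that of STX4-201 -0.24 with 0.0591. The call of STX4-201 was also lost with library size only (adjusted p = 0.0556) and with a filter at a mean count of 1 (adjusted p = 0.0692). Usage under the block missed the threshold for STX4 (adjusted p = 0.0505) and SNAP23 (adjusted p = 0.065).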
